A study of Mus musculus with 11 samples.

Results

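The Egr family (Egr1, Egr2, Egr3, Egr4) and the Nr4a family (Nr4a1, Nr4a2, Nr4a3) are immediate early genes, and these 7 genes of the 25311 in the count table were followed through the retina at postnatal day 10 (P10). They were chosen by name with results of these data already in view, among them the difference of Egr1 between diets, so their levels and differences are given as a description, without a test. All mice were C57BL/6J. Control mice received PBS (n = 3 mice), and Phase I ROP mice, a model of the hyperglycemia-associated early phase of retinopathy of prematurity, received STZ (streptozotocin, which destroys insulin-producing cells; n = 3 mice). These 6 mice were described as littermates, although the paper also states that litters given STZ were kept smaller than litters without it. The other Phase I ROP mice also received STZ and were littermates divided between 2 cages, in which the nursing dam ate a diet enriched in ω-3 (n = 2 mice) or ω-6 (n = 3 mice) long-chain polyunsaturated fatty acids. Their labels carry the word JAX, which the other labels do not. STZ and diet reach the whole animal, so no class of retinal cells was targeted alone. Retinas were dissociated with papain and single cells were captured with inDrop, in which a unique molecular identifier (UMI) tags each RNA molecule.

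Immediate early genes are transcribed within minutes of a stimulus from factors that the cell already holds, without new protein synthesis. Kinases of the MAPK cascade activate SRF with its ELK partners, and calcium and cyclic AMP activate CREB, and both routes meet at the promoters of these genes. EGR proteins are zinc-finger activators that bind GC-rich sites and are held in check by the corepressors NAB1 and NAB2. NR4A proteins are orphan nuclear receptors that act without a ligand. In the retina, Egr1 is best known for its response to light in amacrine cells, and Nr4a2 for its role in the development of GABAergic amacrine cells.

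Sequence before a start site listed by RefSeq (GRCm38.p6) was at hand for 5 of the 7 genes, and is shown because all 7 genes were higher in Phase I ROP over all cells. The windows are chr10:67537619-67537868 (plus strand) for Egr2, chr6:85513590-85513839 (minus strand) for Egr4, chr15:101266596-101266845 (plus strand) for Nr4a1, chr2:57124004-57124253 (minus strand) for Nr4a2 and chr4:48045055-48045152 (plus strand) for Nr4a3. For Egr2, 1 of 5 listed windows is shown, picked because it overlaps no exon and holds the most matches, and for Nr4a3 only the bases before its first exon. Capitals mark matches, on either strand, to TGACG (the core that the cyclic AMP response element holds on each strand), the CArG box bound by SRF, the EGR site GCGNGGGCG and the NR4A site AAAGGTCA.
Egr2: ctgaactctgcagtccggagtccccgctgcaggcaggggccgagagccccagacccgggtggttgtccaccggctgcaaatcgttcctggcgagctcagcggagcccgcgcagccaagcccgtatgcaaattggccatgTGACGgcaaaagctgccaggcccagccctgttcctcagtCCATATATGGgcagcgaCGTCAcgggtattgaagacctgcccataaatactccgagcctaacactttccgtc
Egr4: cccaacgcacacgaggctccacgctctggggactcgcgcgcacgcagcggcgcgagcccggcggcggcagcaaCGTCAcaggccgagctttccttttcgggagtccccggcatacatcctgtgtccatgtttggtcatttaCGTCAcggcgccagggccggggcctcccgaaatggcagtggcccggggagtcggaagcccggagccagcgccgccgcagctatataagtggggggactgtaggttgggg
Nr4a1: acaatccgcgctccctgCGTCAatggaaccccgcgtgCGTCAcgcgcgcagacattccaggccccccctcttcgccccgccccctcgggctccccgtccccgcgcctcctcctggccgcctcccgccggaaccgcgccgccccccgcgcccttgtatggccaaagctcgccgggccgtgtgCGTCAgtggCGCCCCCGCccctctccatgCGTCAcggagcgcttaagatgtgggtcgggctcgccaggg
Nr4a2: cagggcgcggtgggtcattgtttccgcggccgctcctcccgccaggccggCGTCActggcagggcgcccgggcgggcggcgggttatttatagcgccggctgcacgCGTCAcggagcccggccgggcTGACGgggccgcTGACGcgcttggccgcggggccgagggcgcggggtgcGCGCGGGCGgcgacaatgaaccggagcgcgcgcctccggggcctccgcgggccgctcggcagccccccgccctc
Nr4a3: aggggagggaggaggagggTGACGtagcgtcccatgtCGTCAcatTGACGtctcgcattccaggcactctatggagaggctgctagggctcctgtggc

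The windows of Egr4, Nr4a1, Nr4a2 and Nr4a3 each held at least 2 matches to the TGACG core in the 250 bases before the start, counted on both strands. The Egr2 window was picked for its matches, so its count is not set beside the shares below, and 2 of the 5 Egr2 windows, among them the one before the annotated gene start, held no core. Nr4a1, Nr4a2 and Nr4a3 had 4 matches each, of which 3 fall in the stretch shown for Nr4a3. Among all 32851 RefSeq windows of that length, 17.8% held the core at least once, 3.9% at least 2 times and 0.137% at least 4 times. The full element TGACGTCA, in 1.55% of all windows, and the NR4A site, in 1.34%, were in none of the 5. The CArG box, in 1.47% of all windows, was in none of the windows of Egr4, Nr4a1, Nr4a2 and Nr4a3. The picked Egr2 window held it, starting 72 bases from its start site as CCATATATGG. The Egr2 window before the annotated gene start did not. The EGR site, in 4.7% of all windows, was found in the window of Nr4a1 as CGCCCCCGC and in that of Nr4a2 as GCGCGGGCG. The Nr4a1 window, like the picked Egr2 window, lies inside the annotated gene and not before its annotated start. A match is a description of the letters and not a measured binding site.

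In the GENCODE M21 annotation of GRCm38, Egr1 lies on chromosome 18 from 34859823 to 34864984, Egr2 on chromosome 10 from 67535475 to 67542188, Egr3 on chromosome 14 from 70077203 to 70082614 and Egr4 on chromosome 6 from 85511121 to 85513589. Nr4a1 lies on chromosome 15 from 101254269 to 101274795, Nr4a2 on chromosome 2 from 57106830 to 57124003 and Nr4a3 on chromosome 4 from 48045153 to 48086447. Egr4 and Nr4a2 are on the minus strand and the others on the plus strand, and all are protein-coding.

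The table held 20067 cell barcodes, of which 20033 with more than 300 genes were clustered into 25 clusters. Markers named 5 classes with enough cells in every mouse: rods, cones, bipolar cells, amacrine cells and Müller glia. All 7 genes were among the variable genes that the clustering used, and an alternative without them is given under the processing. Total UMIs per mouse ran from 2565568 to 6517776, and the control mice gave only 13 to 46 cones each, which sets a coarse floor there. Of 18842 cell barcodes, 1154 occurred in more than 1 library. The 3 control libraries stood apart from all 8 STZ libraries in structured RNAs. Values are in CPM, a gene's UMIs scaled to a sum of 1000000 per mouse or class. mt-Rnr2, a mitochondrial ribosomal RNA, was at 28195 to 41188 CPM against 3060 to 8232, and Rn7sk, a small nuclear RNA, at 193 to 290.2 against 1.15 to 16.2. The 10 rod markers summed to 1832 to 3998 CPM over all cells of a control mouse and to 11616 to 16385 in Phase I ROP. The part of these differences in the results below was not tested, and handling of a library and treatment of its mouse cannot be told apart.

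Over all cells of a mouse, every one of the 7 genes was higher in each Phase I ROP mouse than in each control mouse. Among all genes tested in these sums, the mice of the groups did not overlap with Phase I ROP higher for 40.2% of genes. Nr4a1, which encodes NUR77, was at 4.05, 3.12 and 5.34 CPM in the control mice and at 245, 245 and 263 CPM in the Phase I ROP mice. The Phase I ROP mice differed from each other far less than from the controls, and the mean was 60.2-fold higher. Nr4a3, which encodes NOR1, was at 2.95, 0.779 and 0.89 CPM in control and at 74.1, 64.4 and 69.1 CPM in Phase I ROP, a fitted log2 difference of 5.23 with a standard error (SE) of 0.31. Nr4a2, which encodes NURR1, was already measured in control, with 19.2, 13.2 and 9.79 CPM against 65.0, 110.4 and 80.6 CPM. Its mean was 6.07-fold higher in Phase I ROP.

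Egr1 was at 40.2, 35.4 and 78.9 CPM in the control mice and at 307, 304 and 552 CPM in the Phase I ROP mice. The 552 CPM mouse stood well above the other 2, and the mean was 7.52-fold higher. The remaining Egr genes were almost silent in control: Egr2, which encodes KROX20, a regulator of myelination, had 6 UMIs over 3205 control cells, Egr3 had 5 and Egr4 had 2. In Phase I ROP, Egr2 was at 21.8, 15.6 and 16.9 CPM, a mean 26.9-fold over control. Egr3, known for its role in muscle spindles, was at 24.2, 49.6 and 29.3 CPM, a mean 66.2-fold over control. Egr4, an Egr gene known mainly from neurons and germ cells, was at 17.8, 30.4 and 47.0 CPM against 0.369, 0 and 0.297 CPM. Summed over mice, that is 301 UMIs against 2, a ratio of 139 with an exact 95% interval of 38.2 to 1154 that covers counting error only.

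**Figure D1:**
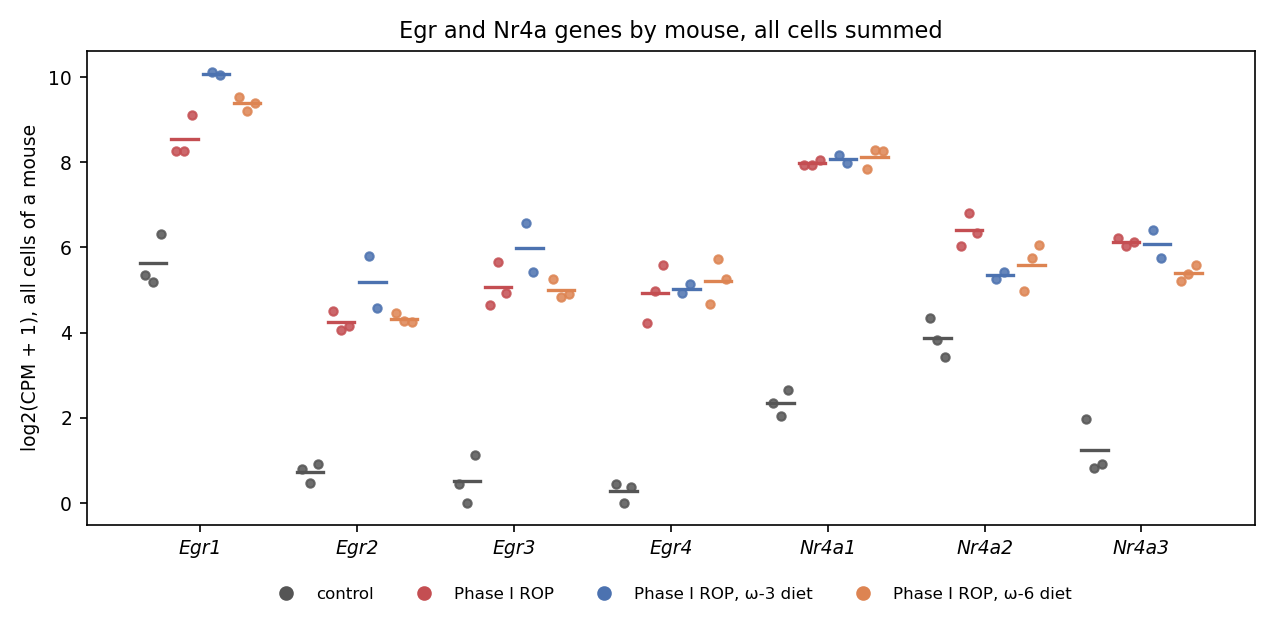
Each point is 1 mouse, its height the log2 of CPM + 1 of a gene over all cells of the mouse, and bars are the means of the groups (control n = 3, Phase I ROP n = 3, ω-3 diet n = 2, ω-6 diet n = 3 mice). For each of the 7 genes, the highest control mouse lies below the lowest mouse of every STZ group.

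Rods made up 894 of the 3205 control cells and 2924 of the 5748 Phase I ROP cells, so sums over all cells weigh the classes differently in each group. With the 5 classes given equal weight, the mean of Egr1 was 107 ± 50.6 CPM (SD, n = 3 mice) in control and 490.5 ± 189.7 CPM in Phase I ROP. That of Nr4a1 was 12.5 against 304 ± 45.8 CPM, and that of Nr4a2 was 8.69 ± 2.75 against 60.6 ± 8.14 CPM. All 7 means were higher in Phase I ROP under equal weight as well, but the sizes moved: the mean was 4.60-fold higher for Egr1, 24.2-fold for Nr4a1 and 6.97-fold for Nr4a2.

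The genes differed in where they were found. Müller glia, the main glial cell of the retina, were the class with the highest mean of Egr2, Egr3, Nr4a1 and Nr4a3 in Phase I ROP. Amacrine cells, inhibitory interneurons, had the highest mean of Egr4 and Nr4a2. Egr1 was highest in photoreceptors, with cones above rods in the mean. The map of means by class shows this division in all 3 STZ groups.

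**Figure D2:**
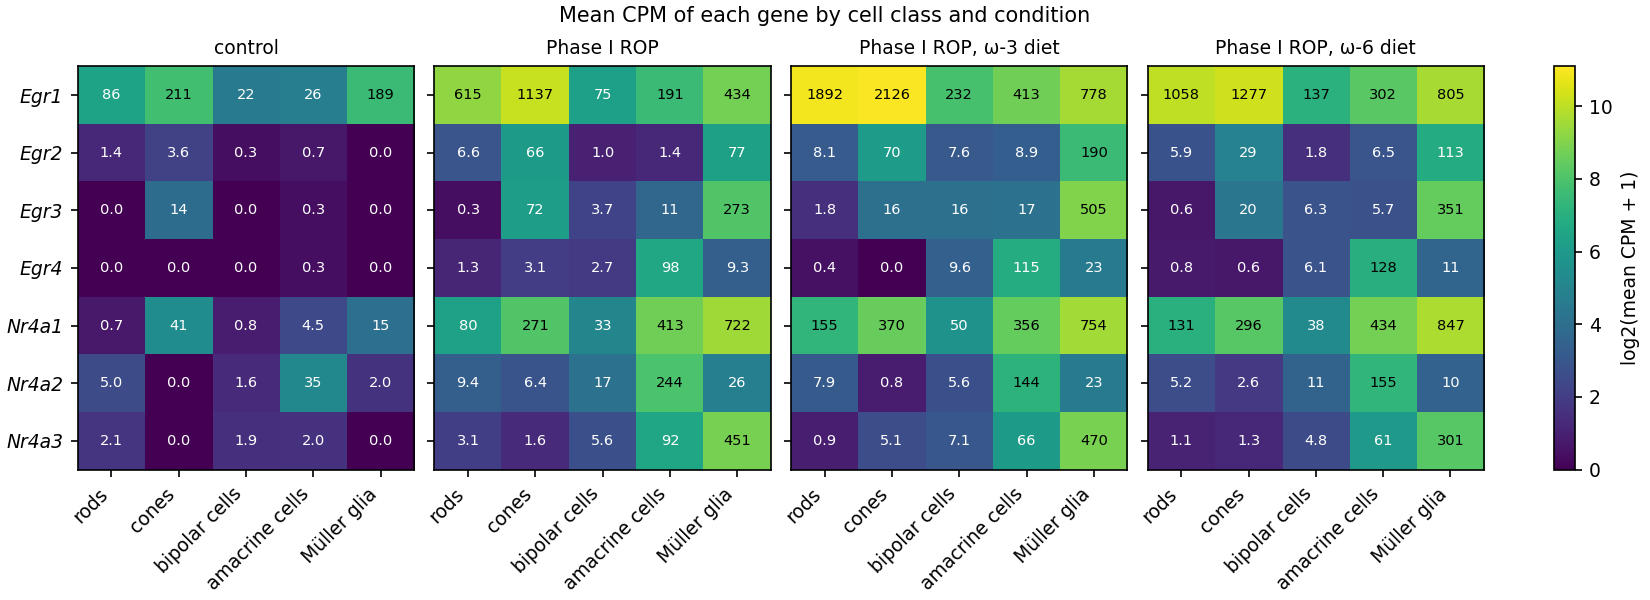
Color is the log2 of mean CPM + 1 of each gene (rows) in each class (columns) over the mice of a condition, and the printed numbers are mean CPM. Nr4a3 and Egr3 stand out in Müller glia, Egr4 and Nr4a2 in amacrine cells and Egr1 in cones and rods.

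In Müller glia, 6 of the 7 genes were higher in every Phase I ROP mouse than in every control mouse, beside 20.8% of all genes tested in that class. Only 5 of the 7 passed the filter on low counts there, 4 of them with 10 control UMIs or fewer, so the share is a description of how the genes were chosen. Nr4a3 had no UMI in the 263 control Müller cells and was at 480.1, 412 and 459 CPM in the Phase I ROP mice. These 3 values are close together. Pooled over the mice, the level was at least 123-fold above what 3 counts over the control group would give. Egr3 had no control UMI either and was at 154, 417 and 247 CPM, with a pooled level at least 67.7-fold above that floor. Egr2, also without a control UMI, was at 97.3, 72.1 and 62.8 CPM, with a pooled level at least 21.4-fold above the floor.

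Nr4a1 in Müller glia was at 7.75, 30.6 and 7.76 CPM in control and at 847, 489.5 and 828 CPM in Phase I ROP. The fitted log2 difference was 5.68 with an SE of 0.40. Nr4a2 and Egr4 were low in Müller glia, with 22 and 8 UMIs in all 3 Phase I ROP mice together, and their mice still did not overlap with control. Egr1 was the exception: 163, 135 and 269 CPM in control and 505, 170.0 and 628 CPM in Phase I ROP. The middle Phase I ROP mouse, at 170.0 CPM, lay below the highest control mouse, so the groups overlapped. Its log2 difference was 1.06 with an SE of 0.38.

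Thinned to 800 UMIs per cell, which leaves out 29 of the 263 control and 87 of the 377 Phase I ROP Müller cells, 56.6 ± 4.4% (SD, n = 3 mice) of Phase I ROP Müller cells were expected to hold a UMI of at least 1 of the 7 genes, against 12.5 ± 2.6% in control. Without thinning the shares were 58.2 to 61.9% and 22.4 to 31.8%. For Nr4a3 the thinned share was 20.6 ± 0.49% against 0, and for Egr3 13.8 ± 5.0% against 0. Thinning kept only 1598 of the 2924 rods of the same Phase I ROP mice, a smaller part than of the Müller cells. In these rods the shares were 0.132% for Nr4a3 and 0 for Egr3, at a like depth after thinning. Without thinning they were at most 0.292% and 0.0803% in a mouse. The shares thus differed between classes of the same libraries by more than the spread between mice.

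In amacrine cells, 6 of the 7 genes did not overlap and were higher in Phase I ROP, beside 40.1% of all genes tested, and 5 of the 7 passed the filter. Nr4a1 was at 6.93, 1.94 and 4.56 CPM in control and at 359, 404 and 477 CPM in Phase I ROP, a 92.3-fold higher mean. Nr4a2 already had a control level of 47.5, 25.2 and 31.9 CPM and reached 198, 278 and 255 CPM, a log2 difference of 2.45 with an SE of 0.21. Amacrine cells were the class where Nr4a2 was clearly measured without STZ, and their Phase I ROP mice lay above those of every other class. Egr4 had 1 UMI in 719 control amacrine cells and was at 52.0, 86.5 and 156 CPM in Phase I ROP, 281 UMIs in all. That ratio was 291 with an exact 95% interval of 51.8 to 11540 for counting error. Nr4a3 went from 3.96, 0.970 and 1.14 CPM to 77.4, 86.5 and 112 CPM, a 45.5-fold higher mean.

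Egr1 in amacrine cells was at 28.7, 19.4 and 28.5 CPM in control and at 145, 148 and 279 CPM in Phase I ROP, a 7.47-fold higher mean. Egr3 was low, at 4.24, 10.4 and 19.9 CPM against 0.990, 0 and 0 CPM. Egr2 stayed at or under 3.18 CPM in all 6 mice and its groups overlapped. Egr2 and Egr3 were thus low in the class with the highest mean of Egr4.

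The amacrine clusters did not share the genes alike. The cluster led by Cartpt, C1ql1 and the GABA enzyme gene Gad1 held Nr4a2 at 397 ± 56.8 CPM and Egr1 at 287 ± 150 CPM in Phase I ROP (SD, n = 3 mice, 378 cells). In the cluster led by Prdm13, Ebf3 and Nhlh2, which has no amacrine marker among its leading genes, Nr4a2 was at 35.7 ± 30.0 CPM and Egr1 at 66.9 ± 24.3 CPM (397 cells). Nr4a1 was at 345 ± 154 and 406 ± 71.4 CPM in these clusters, within their spread. The cluster with the glycine transporter gene Slc6a9 among its leading genes had Nr4a1 at 647 ± 75.4 CPM, Egr1 at 36.5 ± 6.23 CPM and Egr4 at 19.1 ± 6.15 CPM (98 cells). In the cluster led by Pou3f3, which also has Gad1 among its leading genes, Egr1 was at 45.1 ± 78.1 CPM and Nr4a2 at 127 ± 182 CPM (48 cells). The cluster with the acetylcholine genes Slc5a7, Slc18a3 and Chat among its leading genes had Egr1 at 310.3 ± 72.9 CPM and Nr4a2 at 153 ± 84.7 CPM (40 cells). Egr1 and Nr4a2 were higher in the Cartpt cluster than in the Ebf3 cluster without overlap of mice, whereas the Pou3f3 and Ebf3 clusters overlapped for both genes.

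In rods, only Egr1 and Nr4a1 passed the filter, and only these 2 did not overlap, beside 39% of all genes tested. Egr1 was at 46.3, 94.0 and 118 CPM in control and at 461, 528 and 857 CPM in Phase I ROP, a log2 difference of 2.43 with an SE of 0.32. Nr4a1 had 1 UMI in 894 control rods and was at 86.4, 82.8 and 71.3 CPM in Phase I ROP. Scaled to depth, its ratio of 213 UMIs to 1 was 78.2, with an exact 95% interval of 13.9 to 3102. The other 5 genes were at 14.6 CPM or less in every Phase I ROP mouse, with 1 UMI in all for Egr3. Only Egr1 and Nr4a1 thus lay above 14.6 CPM in rods of the Phase I ROP mice. Nr4a1 did not set rods apart from the other classes. Its Phase I ROP mean was 80.2 CPM in rods, below cones (271), amacrine cells (413) and Müller glia (722).

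In cones, Egr1, Egr2 and Nr4a1 did not overlap, 3 of 7 beside 28.6% of all genes tested, of which Egr1 and Nr4a1 passed the filter. Egr1 was at 27.0, 260.4 and 345 CPM in control and at 669, 1067 and 1674 CPM in Phase I ROP. The first control value rests on 1 UMI in 14 cones. Nr4a1 was at 27.0, 0 and 97.1 CPM in control and at 158, 301 and 355 CPM in Phase I ROP, a 6.56-fold higher mean. Its log2 difference was 2.04 with an SE of 0.54, and 4.24 without the third control mouse. Egr2 was at 27.1, 75.2 and 94.2 CPM in Phase I ROP, 48 UMIs against 1 in the control mice, a ratio of 11.4 with an interval of 1.95 to 458. The median log2 difference of all genes tested in cones was 0.10.

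In bipolar cells, which relay the photoreceptor signal, the levels were low but 6 of 7 genes did not overlap, beside 42.4% of all genes tested, and 2 passed the filter. Egr1 was at 22.0, 11.7 and 31.7 CPM in control and at 61.0, 57.4 and 107 CPM in Phase I ROP, a 3.45-fold higher mean. Nr4a1 was at 1.16, 1.17 and 0 CPM in control and at 27.3, 37.6 and 35.1 CPM in Phase I ROP. In the Phase I ROP mice, bipolar cells had the lowest level of both genes among the 5 classes, and did not overlap with the next class. The other 4 genes that did not overlap had 5 to 28 UMIs in all 3 Phase I ROP mice and did not pass the filter, unlike the genes behind the 42.4%. Markers of rods moved with these values: the 10 rod markers summed to 867 to 1467 CPM in control bipolar cells and to 1618 to 2527 CPM in Phase I ROP. When the cells in the top 5% of doublet scores were left out, the log2 difference of Egr1 in bipolar cells was 1.00 with an SE of 0.37 in place of 1.36 with an SE of 0.35.

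The order of the classes was firm for some genes. In Phase I ROP, Nr4a1 ran from Müller glia through amacrine cells, cones and rods to bipolar cells with no overlap of mice between any neighbours. Nr4a3 in Müller glia lay above amacrine cells, and those above bipolar cells, without overlap. For Egr1, the mice of cones, rods and Müller glia overlapped from each class to the next, and so did Müller glia and amacrine cells. The classes come from the same mice, however. Within each mouse, Egr1 was higher in cones than in rods and higher in Müller glia than in amacrine cells. Rods and Müller glia changed order between mice. The 10 rod markers summed to 282 to 613 CPM in control Müller glia and to 923 to 2579 CPM in Phase I ROP, and to 373 to 452 and 787 to 1216 CPM in amacrine cells, and their part in the Egr1 values there was not tested. Müller glia and cones overlapped for Egr2 and Egr3. Within each mouse, Egr3 was higher in Müller glia than in cones. Egr2 was higher in Müller glia in the first mouse and lower in the others, so its order is not settled by 3 mice.

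Small classes were counted but not compared. Astrocytes of Phase I ROP mice (13 cells) held 27 UMIs of Egr2 and 29 of Nr4a1, endothelial cells (25 cells) 87 UMIs of Nr4a1, and microglia (14 cells) 23 UMIs of Egr3. These are 513, 551, 789 and 944 CPM over the pooled cells, from so few cells that a single cell can set the value.

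Beside the 7 genes, 3 lists of their pathway were tested in the same fits: upstream kinases and transcription factors (35 genes in the table), partners and feedback regulators (28) and other immediate early genes (35). An adjusted p under 0.05 in the quasi-likelihood test of edgeR, after Benjamini-Hochberg adjustment, was counted as a call. The genes named below had the largest called increase or decrease of a list and class among genes whose mice did not overlap. The lists were chosen with results of these data known, so the counts are set beside all genes tested and no list test was run. Of the genes of the 3 lists that passed the filter, 25 of 44 rose and 2 fell in rods, where 18.1% of all genes tested rose and 20.4% fell. In Müller glia 27 of 46 rose and 0 fell, where 5.81% of all genes rose and 5.03% fell. In amacrine cells 45 of 69 rose and 2 fell (all genes: 18.3% and 20.5%), and in bipolar cells 23 of 50 rose and 1 fell (all genes: 21.3% and 23.9%). In cones 12 of 21 rose and 0 fell (all genes: 10.9% and 7.9%), and with the sums thinned to the smallest total only 1 list gene was tested there. A gene silent in control passes the filter only through the Phase I ROP mice, so these shares depend on the filter. Without it, 37 of 95 list genes rose in rods (all genes: 2585 of 23025) and 37 of 96 in Müller glia (341 of 21307). In amacrine cells 53 of 98 rose (2245 of 24274), in bipolar cells 35 of 94 (2433 of 23737) and in cones 12 of 90 (413 of 18915).

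The other immediate early genes had the highest median of the 3 lists in each of the 5 classes. In Müller glia 21 of the 35 passed the filter, some of them only through the Phase I ROP mice. Of these 21 genes 20 rose and none fell, with a median log2 difference of 3.12 beside 0.000844 over all genes. Atf3, a stress-induced transcription factor, had no UMI in control Müller glia and a mean of 145 CPM in Phase I ROP, at least 39.0-fold higher (adjusted p = 0.000195). In amacrine cells 21 of 23 rose, with a median of 2.22. Fosb, a subunit of the AP-1 factor, went there from 1 UMI to 255, a ratio of 264 with an interval of 47.0 to 10476 (adjusted p = 1.23e-06). It also had the largest increase of this list in rods, from no UMI to 45.1 CPM, at least 14.8-fold (adjusted p = 0.000122), and in cones, from no UMI to 141 CPM, at least 7.92-fold (adjusted p = 0.000967). In bipolar cells 7 of 12 rose, led by Klf6, a zinc-finger factor, at 98.0 against 2.49 CPM (log2 difference 4.75, SE 0.45, adjusted p = 2.37e-06).

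Partners and feedback regulators rose in 13 of 17 tested genes in amacrine cells, 7 of 12 in Müller glia, 6 of 8 in rods, 5 of 10 in bipolar cells and 1 of 3 in cones. Nab2, the corepressor that EGR proteins induce, was the largest increase in Müller glia, at 93.1 against 7.32 CPM (log2 difference 3.45, SE 0.62, adjusted p = 0.00289). Dusp1, a phosphatase that switches off MAP kinases, led in amacrine cells at 238 against 17.8 CPM (log2 difference 3.38, SE 0.20, adjusted p = 9.98e-08) and in bipolar cells at 37.9 against 2.48 CPM (3.41, SE 0.54, adjusted p = 0.000192). Dusp5, which acts on ERK, led in rods at 102 against 12.1 CPM (2.81, SE 0.42, adjusted p = 8.66e-05) and in cones at 71.4 CPM against no UMI, at least 4.00-fold (adjusted p = 0.0114). Sik1, a kinase that restrains CREB coactivators, fell in rods from 48.7 to 28.3 CPM (log2 difference -1.16, SE 0.37, adjusted p = 0.0208).

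Upstream kinases and transcription factors had lower medians than the other immediate early genes in each class. They rose in 11 of 28 tested genes in bipolar cells, 11 of 29 in amacrine cells, 7 of 21 in rods and 3 of 8 in cones. In Müller glia edgeR called 0 of 13, where 5.81% of all genes rose, 3 of the 13 had an unadjusted p under 0.05, and DESeq2 called 0. The median log2 differences were 0.20 in Müller glia and 0.40 in amacrine cells. Atf1, a CREB relative, led in rods, with 102 UMIs against 3, a ratio of 12.5 with an interval of 4.15 to 61.5 (adjusted p = 0.00117), and in amacrine cells, at 24.9 against 8.13 CPM (log2 difference 1.24, SE 0.41, adjusted p = 0.0254). Creb1 itself led in cones, with 79 UMIs against 2, a ratio of 9.36 with an interval of 2.51 to 78.6 (adjusted p = 0.0167). Mapk14, the p38 kinase, led in bipolar cells at 29.1 against 5.54 CPM (log2 difference 1.98, SE 0.43, adjusted p = 0.00227). Camk4, a calcium-dependent kinase, fell in rods from 60.8 to 19.8 CPM (log2 difference -1.94, SE 0.40, adjusted p = 0.00127).

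**Figure D3:**
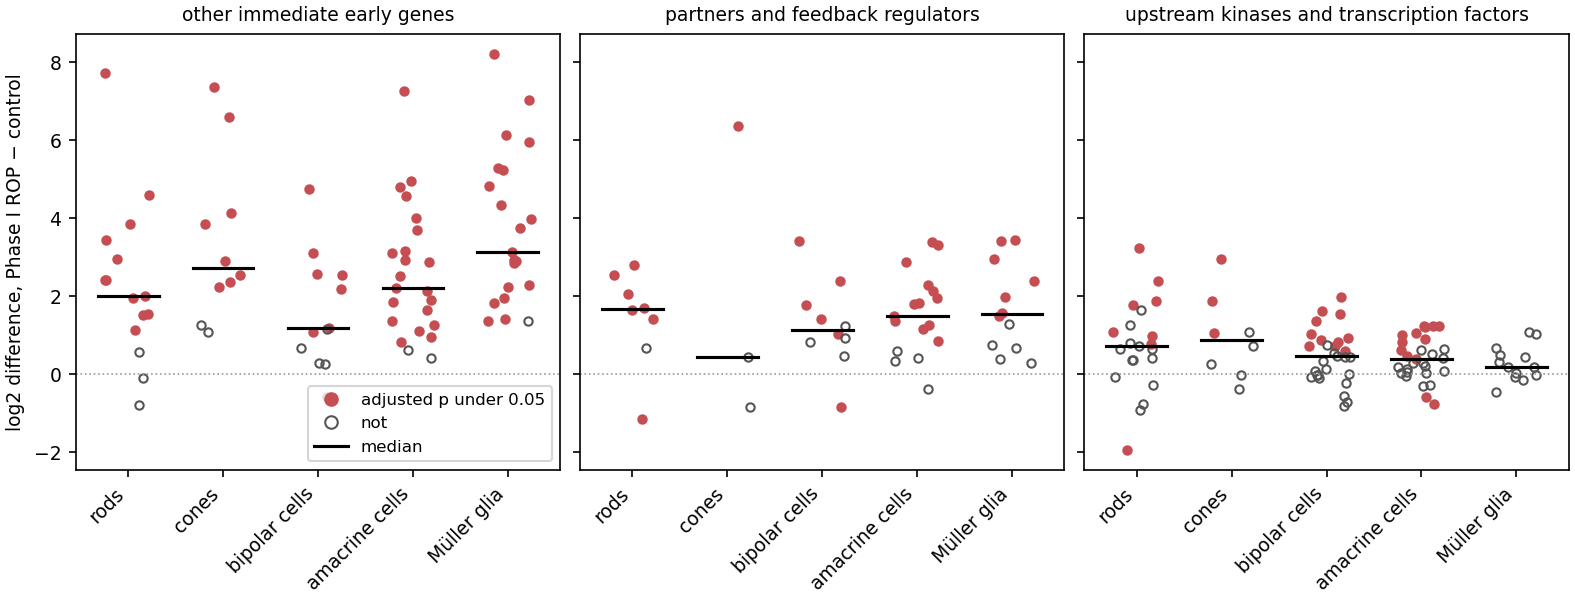
Each point is a gene of a pathway list that passed the filter, its height the log2 difference of Phase I ROP minus control in a class. Points are filled where edgeR's adjusted p is under 0.05, and bars are the medians of these genes. The other immediate early genes reach the largest differences, with a median of 3.12 in Müller glia.

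Heat shock genes, which also respond to handling of tissue, were looked at beside these values. Over all cells the 14 genes summed to 3961 to 4318 CPM in control and to 6021, 3953 and 4057 CPM in Phase I ROP. Of the 14 genes, 8 were higher in Phase I ROP without overlap of mice, 1 was lower and 5 overlapped. Among all 15964 genes tested over all cells, 40.2% were higher without overlap and 2811 were lower. Dnajb1 was at 16.0 to 24.9 CPM in control and at 113.5 to 266 CPM in Phase I ROP. Hspa1a was at 2.37 to 5.16 against 26.5 to 329 CPM, and Hspa1b at 5.94 to 15.8 against 43.3 to 508 CPM. The lower gene was Hspa8, at 1295 to 1436 CPM in control and at 844 to 913 CPM in Phase I ROP. The part of these genes in the differences of the 7 genes was not tested.

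The patterns over the 55 sums of 11 mice and 5 classes sorted the genes into groups. Pearson's r of log2 CPM (prior count 2) was 0.86 between Egr2 and Egr3 and 0.79 between Egr4 and Nr4a2, but -0.07 between Egr1 and Nr4a2. Among 13286 other genes, the patterns most like each member were those of Nfic, Ssx2ip and Ier3 for Egr1 (r of 0.86, 0.85 and 0.85), Socs3, Atf3 and Nfkbia for Egr2 (0.89, 0.88 and 0.81) and Tnfrsf12a, Csrnp1 and Maff for Egr3 (0.88, 0.88 and 0.85). For Egr4 they were Ier5l, Nyap1 and Stc1 (0.81, 0.80 and 0.80), for Nr4a1 Fosb, Fos and Gadd45b (0.93, 0.89 and 0.83), for Nr4a2 Efna3, Cx3cl1 and Slc6a17 (0.89, 0.88 and 0.88) and for Nr4a3 Fosl2, Jdp2 and Arc (0.93, 0.90 and 0.90). The sums share libraries, depth and classes, so these values describe likeness and carry no p.

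Between the diets, Egr1 was the gene that differed in most classes. Over all cells it was at 1106 and 1062 CPM in the ω-3 mice and at 743, 591 and 671 CPM in the ω-6 mice, a log2 difference of -0.62 with an SE of 0.13. Both ω-3 mice thus lay above all 3 ω-6 mice, and all 5 lay above the highest Phase I ROP mouse without a diet label, at 552 CPM. Among all genes tested over all cells, 19.5% were lower on ω-6 without overlap. Of the 7 genes, 4 were lower without overlap and none was higher.

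In rods Egr1 was at 2029 and 1755 CPM on ω-3 and at 1093, 959.6 and 1122 CPM on ω-6, and it was the 1 of 7 genes lower without overlap there, beside 22.7% of all genes tested. The log2 difference was -0.71 with an SE of 0.13. In cones it was at 2334 and 1918 CPM on ω-3 and at 1487, 1068 and 1276 CPM on ω-6, a log2 difference of -0.70 with an SE of 0.15. The photoreceptors of both kinds therefore differed by about the same factor, with ω-6 means at 0.559 and 0.601 of the ω-3 means. In amacrine cells Egr1 was at 417 and 408 CPM on ω-3 and at 255, 344 and 306 CPM on ω-6, a smaller log2 difference of -0.37 with an SE of 0.15. In Müller glia it was at 696 and 860.0 CPM on ω-3 and at 911, 884 and 620.4 CPM on ω-6, and the groups overlapped. The log2 difference there was 0.11 with an SE of 0.20, and whether the diets differ more in rods than in Müller glia was not tested.

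In bipolar cells Egr1 was at 249 and 216 CPM on ω-3 and at 133, 164 and 115 CPM on ω-6, a log2 difference of -0.69 with an SE of 0.21. With the cells in the top 5% of doublet scores left out, that difference was -0.06 with an SE of 0.28. Rod markers in bipolar cells summed to 3934 to 4165 CPM on ω-3 and to 2998 to 4385 CPM on ω-6. In rods, cones and amacrine cells the same removal left -0.71, -0.70 and -0.41. In amacrine cells the rod markers summed to 2044 to 2215 CPM on ω-3 and to 907 to 1653 CPM on ω-6, and their part in the Egr1 difference was not tested.

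**Figure D4:**
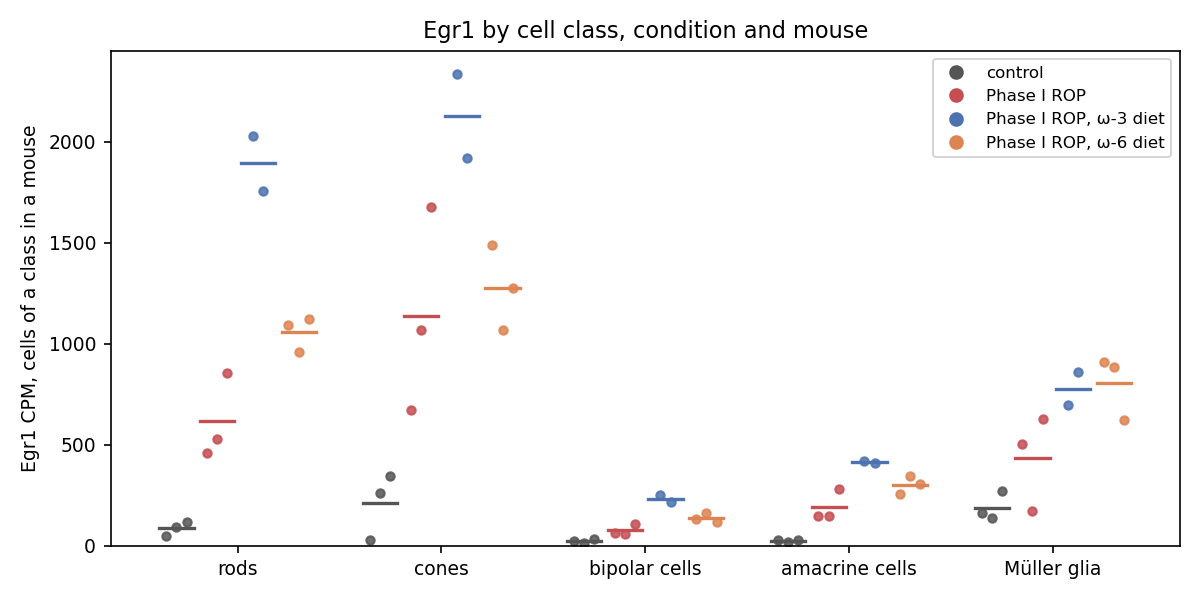
Each point is the CPM of Egr1 in the cells of a class in 1 mouse, on a linear axis from 0, with bars for the means of the 4 groups (n = 3, 3, 2 and 3 mice). The ω-3 mice lie above the ω-6 mice in rods, cones, bipolar cells and amacrine cells and among them in Müller glia.

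The other Egr genes differed less firmly between diets. Over all cells Egr2 was at 54.8 and 23.02 CPM on ω-3 and at 20.9, 18.3 and 17.9 CPM on ω-6, and Egr3 at 94.1 and 41.9 CPM against 37.1, 27.8 and 29.2 CPM. The first ω-3 mouse lay far above the second in both. Without it, the log2 difference of Egr2 went from -0.94 to -0.21 and that of Egr3 from -1.03 to -0.36. In Müller glia, their main class, the mice of the diets overlapped for both genes. In amacrine cells Egr3 was lower on ω-6 without overlap, at 1.62, 10.7 and 4.81 CPM against 19.1 and 14.3 CPM, from 27 and 46 UMIs. Egr1 and Egr3 were the 2 of 7 genes lower there, beside 18.9% of all genes tested. Egr4 overlapped between the diets in every class.

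Of the Nr4a genes, Nr4a3 was lower on ω-6 over all cells, at 36.3, 40.3 and 47.1 CPM against 84.1 and 52.8 CPM. Without the first ω-3 mouse its log2 difference went from -0.65 to -0.30. In Müller glia Nr4a3 was at 493 and 447 CPM on ω-3 and at 337, 289 and 275 CPM on ω-6, a log2 difference of -0.59 with an SE of 0.21. There Nr4a2 was lower as well, from 31 and 11 UMIs, so that 2 of 7 genes were lower without overlap, beside 12.5% of all genes tested. Nr4a1 overlapped between the diets over all cells, at 286 and 253 CPM on ω-3 and at 228, 310.0 and 305 CPM on ω-6. In cones alone Nr4a1 was lower on ω-6 without overlap, at 279.6, 276 and 332 CPM against 402 and 337 CPM, which with Egr1 made 2 of 7 genes, beside 15.1% of all genes tested. The gap between the nearest mice of the groups, 332 and 337 CPM, was small. In bipolar cells Egr1 was lower and Nr4a2 higher on ω-6, beside 12.4% of all genes lower and 7.68% higher, and the 5 other genes overlapped.

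In both diet groups the class with the highest mean of each gene was the one seen in Phase I ROP, while lower ranks changed: amacrine cells and cones overlapped for Nr4a1, and cones no longer overlapped with Müller glia for Egr3. Egr1 in rods was at 461 to 857 CPM in Phase I ROP mice and at 959.6 to 2029 CPM in the 5 mice of the diet groups. Nr4a2 in amacrine cells was at 198 to 278 CPM in Phase I ROP and at 106 to 209.9 CPM in the diet groups. These groups differ from Phase I ROP in label and feed together, which cannot be told apart, and no test was made between them.

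No gene of the 3 pathway lists passed the adjusted p in edgeR between the diets in any class, in 349 pairs of gene and class, of which 35 had an unadjusted p under 0.05. DESeq2 called 1 pair. Among all genes, edgeR called 2 of 12456 in rods (0.0161%), both higher on ω-6, and 0 (0%) in each other class, where 283 genes in Müller glia to 1298 in amacrine cells had an unadjusted p under 0.05. DESeq2 called 42 genes in rods, 7 in amacrine cells and 2 in each of the remaining classes. The median log2 differences of the 3 lists lay between -0.30 and 0.16 in the 5 classes, beside medians of 0.00 to 0.02 over all genes.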

How the data were processed

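Retinas of 11 mice were dissociated and captured with inDrop v3. The authors deposited raw UMI counts per gene and cell, identified with umis in bcbio-nextgen and assigned with Rapmap to GENCODE transcripts of GRCm38 (mm10), with cells of few reads removed. No column was unmapped. Cells with more than 300 genes were clustered in Seurat 5.3.0 (2000 variable genes, 75 components, resolution 0.2) and named by fixed markers. Rods comprised 8 clusters, of which 1 had rod markers among its leading genes. Scrublet in scanpy 1.11.5 marked 72 cells (0.359%), too few to rely on, so no cell was removed as a doublet and an alternative left out the highest 5% of scores.

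UMI counts were summed per mouse and class and tested with edgeR 4.0.16 (quasi-likelihood, TMM, filterByExpr, Benjamini-Hochberg, 0.05) in R 4.3.3, with DESeq2 1.42.0 as an alternative. The fit was tested on simulated data. CPM were computed from plain totals. Beyond the 7 genes, the genes named from each list were the largest called increase and decrease per class among genes whose mice did not overlap. Members and lists were chosen with earlier results of these data known. P values measure the spread between mice of 1 experiment, and intervals cover counting error only, as do floors of 3 counts.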

Additional observations from a re-analysis of the deposited data

Results flagged for a closer look

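At low counts, Nr4a2 separated the mice of the diets in opposite directions in 2 classes, and it passed the filter on low counts in neither. In bipolar cells each ω-6 mouse was above each ω-3 mouse, with mean CPM higher by 5.07 (26 and 12 UMIs), and in Müller glia each ω-6 mouse was below each ω-3 mouse, a difference of -12.5 CPM (11 and 31 UMIs). The difference between the classes was not tested.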

How the results depend on the processing

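Between Phase I ROP and control, 25 of the members' log2 differences moved by more than the spread between mice and 291 did not. None changed direction, but 12 of 35 pairs of gene and class had a value in only 1 setting. Nr4a1 in cones ranged from 1.61 to 4.24, and Egr2 in cones from 2.78 to 6.39. Between the diets 10 moved and 371 did not, the former including Egr1 in bipolar cells (-0.06 without the highest doublet scores). The direction changed over settings for 8 of the 27 pairs with a value in more than 1 setting: Nr4a1 in rods and bipolar cells, Egr2 and Egr3 in cones, Egr4, Nr4a2 and Nr4a3 in amacrine cells, and Egr1 in Müller glia. The other 8 of the 35 pairs had a value in only 1 setting, so no change could show. Genes called between Phase I ROP and control numbered 3037 in rods, with 4935 when all 4 groups entered 1 fit and 1146 with sums thinned to equal depth, 587 in cones, with 961 and 10, and 526 in Müller glia, with 290 thinned and 309 in DESeq2. Leaving out 1 mouse gave 276 to 649 in cones and 265 to 420 in Müller glia. Of the pathway lists, 27 genes were called in rods and 13 when thinned, and 12 in cones, with 0 of 1 tested when thinned and 7 to 11 without 1 mouse. The lower thinned counts rest on fewer counts and fewer genes tested; the other causes were not tested.

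Between the diets, calls without a filter on low counts were 157 in rods, 139 in amacrine cells, 18 in bipolar cells, 12 in cones and 9 in Müller glia, and 4 among pathway pairs, where DESeq2 called 1. DESeq2 called 42, 7, 2, 2 and 2 genes in the same order of classes. In rods, the fit of all 4 groups called 6, and removal of the highest doublet scores or of cells up to 500 genes left 0, while that removal gave 2 in amacrine cells. Leaving out 1 mouse gave 0 to 12 in rods, 0 to 3 in cones, 0 to 5 in amacrine cells and 0 to 4 in Müller glia. Whether same-numbered mice shared more than a number is not stated. Their correlations were -0.05 to 0.15 for Phase I ROP and control and 0.04 to 0.27 for the diets. In each class, the second mice of the diets and the third mice of Phase I ROP and control correlated most with their own number. A shared batch was not tested. With the replicate block the diets had 60 calls in amacrine cells, 17 in bipolar cells, 23 in rods, 10 in Müller glia and 22 in cones. Restricting rods to the cluster with rod markers among its leading genes, which hemoglobin genes headed, was chosen after seeing the data and gave 2143 calls. That cluster held 494 of the 894 control rods and 2475 of the 2924 Phase I ROP rods. Control cones numbered 73 cells.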
